A study of Mus musculus with 12 samples.

Results

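The comparison described here set the 6 arrays of mouse bone marrow carrying a CALM-AF10 fusion with the OM-LZ part of AF10 against the 6 arrays of marrow without it. All 12 arrays of the series entered, chosen by the construct named in their labels and by no measured value. Cells with OM-LZ carried either the minimal fusion, CALM(400-648)+AF10 (677-758), or the full fusion CALM-AF10, and cells without it carried either CALM-AF10 ΔOM-LZ, the fusion lacking that part, or the empty vector MIG, with 3 biological replicates per construct. Every donor was an adult mouse of the strain labelled C57/BL6/C3H that had received 5-fluorouracil, an agent that kills cycling marrow cells, and the sources used here give no donor age in weeks, sex or pooling. All 4 groups were pre-stimulated for 48 h, transduced by overlay on irradiated GFP+E86 virus producers, sorted for GFP and read 96 h after transduction, so every construct was expressed from a retrovirus, and not from its own locus, in a mixed culture. Values are log2 intensities of 21789 probe sets with 1 gene symbol, out of 35556 in the deposited table. A difference is the mean of both OM-LZ fusions minus the mean of ΔOM-LZ and MIG, and a difference of 1 on this scale is a doubling.

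CALM-AF10 joins CALM, a protein of clathrin-coated vesicles, to AF10, a chromatin protein, and occurs in acute leukaemias of myeloid and T lymphoid type. The OM-LZ part of AF10, an octapeptide motif with a leucine zipper, binds DOT1L, the methyltransferase of histone H3 that marks the bodies of transcribed genes. HOXA genes encode homeobox transcription factors that are active in early blood progenitors and are turned down as these mature, and leukaemias with CALM-AF10 are known for keeping them on. MEIS proteins bind DNA together with HOXA proteins, and Cd27 encodes a receptor of the tumour necrosis factor receptor family carried by lymphocytes and by early progenitors.

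The arrays were close to each other as wholes. Array medians ran from 6.58 to 6.69, and the mean correlation over all named probe sets was 0.9853 for 12 pairs of arrays of the same construct and 0.9856 for 54 pairs of different constructs. The label "bone marrow" was borne out by blood cell genes, whose 11 measured members had mean levels of 10.3 to 12.6. Collagen and other fibroblast genes, which would mark producer cells, had mean levels of 3.87 to 10.8 and a median difference of 0.02. Every group was overlaid on producer cells, so a small difference does not show that these cells were absent. P-values measure the spread between these biological replicates, and what a replicate number shares is not given. In sorted bulk cells, fewer cells of a type and less RNA per cell cannot be told apart.

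Hoxa9, Hoxa6 and Cd27 rose in cells with an OM-LZ fusion, and they were the only probe sets with a gene symbol to pass an adjusted p of 0.05 in the limma fit. These 3 were 0.0128% of the 23410 probe sets tested, and none was lower. At an unadjusted p under 0.05 there were 960 higher (4.1%) and 668 lower (2.85%). Over all probe sets tested the median difference was 0.00, with 50.9% above 0. All 3 genes lie on chromosome 6, with Hoxa9 and Hoxa6 in the HOXA cluster and Cd27 elsewhere on that chromosome. Their start regions are printed because these genes carry the result. Each window runs from 250 bases before to 50 after the RefSeq gene start on GRCm38.p6, is read on the minus strand, and has its CG pairs, the usual target of DNA methylation, in capitals.
Hoxa9, chr6:52227321-52227620: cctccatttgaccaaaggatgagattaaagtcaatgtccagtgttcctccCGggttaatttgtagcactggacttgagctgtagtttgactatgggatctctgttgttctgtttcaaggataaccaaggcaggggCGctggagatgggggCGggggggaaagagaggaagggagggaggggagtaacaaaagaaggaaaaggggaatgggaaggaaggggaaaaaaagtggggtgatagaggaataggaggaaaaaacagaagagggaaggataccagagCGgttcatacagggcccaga
Hoxa6, chr6:52208623-52208922: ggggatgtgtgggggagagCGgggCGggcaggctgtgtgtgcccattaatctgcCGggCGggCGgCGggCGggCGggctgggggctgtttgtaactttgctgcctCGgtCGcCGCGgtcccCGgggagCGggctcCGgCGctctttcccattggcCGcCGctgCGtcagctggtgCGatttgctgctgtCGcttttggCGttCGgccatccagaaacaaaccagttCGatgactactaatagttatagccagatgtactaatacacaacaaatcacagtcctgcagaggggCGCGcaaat
Cd27, chr6:125236978-125237277: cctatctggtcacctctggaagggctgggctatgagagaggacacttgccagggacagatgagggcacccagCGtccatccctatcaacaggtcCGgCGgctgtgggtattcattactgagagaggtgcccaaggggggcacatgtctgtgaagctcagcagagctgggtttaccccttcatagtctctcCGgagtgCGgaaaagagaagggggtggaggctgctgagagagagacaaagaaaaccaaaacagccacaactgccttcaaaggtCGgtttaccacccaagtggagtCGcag
The Hoxa9 window held 4 CG pairs and the Cd27 window 7, against 26 in the Hoxa6 window and a median of 7 over 32851 mouse windows of this length. The HOX and PBX dimer motif TGATTNAT and the MEIS motif TGACAG, searched on both strands, were in none of these 3 windows. They occur in 3.22% and 19.2% of all such windows. Other HOXA windows with a match were those of Hoxa3, for TGACAG, and Hoxa2, for both. The 3 windows thus differed widely in CG content.

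Hoxa9, a homeobox factor that holds progenitors in an immature state, had log2 intensities of 9.94, 10.10 and 10.13 with the minimal fusion. It had 9.03, 8.94 and 8.95 with CALM-AF10, against 8.64, 8.57 and 8.63 with ΔOM-LZ and 8.74, 8.44 and 8.81 with MIG. Every array with OM-LZ stood above every array without it, and the arrays fell into a high set for the minimal fusion, a slightly raised set for CALM-AF10 and a common low range for the constructs without OM-LZ. The group means were 10.05 ± 0.10, 8.97 ± 0.05, 8.61 ± 0.04 and 8.67 ± 0.20 in the same order (SD, n = 3 each). The pooled difference was 0.87 (SE 0.07, 95% interval 0.71 to 1.04, limma adjusted p = 0.00429), a 1.83-fold rise. Set against the 6 arrays without OM-LZ, the minimal fusion alone stood 1.41 higher and CALM-AF10 alone 0.33 higher. The pooled value is therefore a mean of a large and a small difference. The gap between the fusions was itself past the threshold, at 1.08 (SE 0.11, limma adjusted p = 0.0161), while ΔOM-LZ and MIG differed by −0.05.

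Hoxa6, which lies nearer the front of the cluster, read 8.58, 9.04 and 8.79 with the minimal fusion. It read 7.90, 7.46 and 7.77 with CALM-AF10, against 7.25, 6.94 and 7.38 with ΔOM-LZ and 7.35, 7.04 and 7.18 with MIG. The 6 and 6 arrays did not overlap, although the lowest CALM-AF10 array lay only just above the highest ΔOM-LZ array. Means were 8.80 ± 0.23, 7.71 ± 0.23, 7.19 ± 0.22 and 7.19 ± 0.16 in that order. The pooled difference was 1.07 (SE 0.12, 95% interval 0.81 to 1.32, limma adjusted p = 0.0212), or 2.09-fold. The minimal fusion stood 1.09 above CALM-AF10, which did not pass the threshold of its own comparison (limma adjusted p = 0.283), and ΔOM-LZ matched MIG to 0.00.

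Cd27 read 9.77, 10.36 and 9.85 with the minimal fusion. It read 9.38, 9.01 and 9.09 with CALM-AF10, against 8.45, 7.95 and 8.36 with ΔOM-LZ and 8.5, 8.03 and 7.65 with MIG. Both fusions with OM-LZ were clear of every array without it, and of the 3 genes called, Cd27 had the highest value for CALM-AF10 alone. Means were 9.99 ± 0.32, 9.16 ± 0.19, 8.26 ± 0.26 and 8.06 ± 0.42. The pooled difference was 1.42 (SE 0.16, 95% interval 1.06 to 1.78, limma adjusted p = 0.0252), or 2.67-fold. Against the 6 arrays without OM-LZ, the minimal fusion stood 1.83 higher and CALM-AF10 1.0 higher. As for Hoxa9, the minimal fusion was highest and CALM-AF10 next, and the gap of 0.83 between the fusions (95% interval 0.33 to 1.34) did not pass (limma adjusted p = 1).

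**Figure D1:**
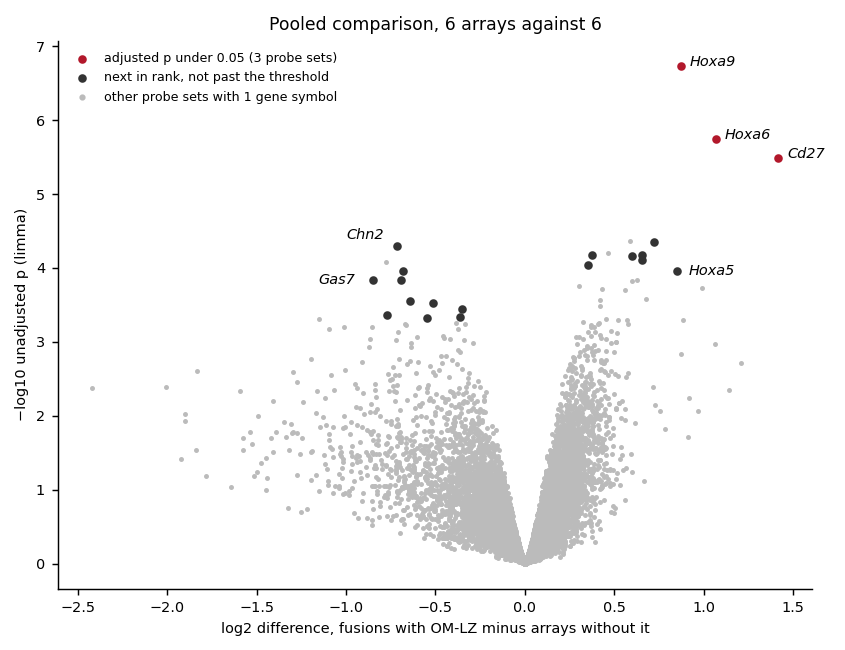
Each point is a probe set with 1 gene symbol. The x axis is the log2 difference between both OM-LZ fusions and the arrays without OM-LZ, the y axis is −log10 of the unadjusted limma p, red points passed an adjusted p of 0.05 and dark points are the next in rank. Hoxa9, Hoxa6 and Cd27 stand apart at the upper right, at 0.87, 1.07 and 1.42, and no probe set on the left passed.

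The other 8 measured HOXA genes also stood higher with OM-LZ, though none of them passed the threshold. Over the 10 measured members of the cluster the median difference was 0.69, against 0.00 for all probe sets, with 10 of 10 above 0 and 7 at an unadjusted p under 0.05, where 4.1% of all probe sets were. Hoxa3, Hoxa5 and Hoxa7, front and middle genes of the cluster, differed by 0.72, 0.85 and 0.89 (limma adjusted p = 0.161, 0.171 and 0.284). Hoxa10, the neighbour of Hoxa9 on its other side, read 8.02, 8.24 and 7.87 with the minimal fusion and 7.04, 6.66 and 6.92 with CALM-AF10. Without OM-LZ it read 6.87, 6.72 and 6.65 with ΔOM-LZ and 6.62, 6.85 and 7.12 with MIG. The CALM-AF10 arrays of Hoxa10 thus lay inside the range of arrays without OM-LZ, and its pooled difference of 0.65 (SE 0.11, limma adjusted p = 0.161) came from the minimal fusion: CALM-AF10 alone stood 0.07 above the arrays without OM-LZ and the minimal fusion 1.24.

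The CALM-AF10 arrays were uneven for Hoxa5. It read 7.97, 8.19 and 8.07 with the minimal fusion and 7.17, 6.34 and 7.10 with CALM-AF10, against 6.63, 6.36 and 6.89 with ΔOM-LZ and 6.59, 6.68 and 6.57 with MIG. CALM-AF10 replicate 2 lay beside the lowest ΔOM-LZ array while the other CALM-AF10 arrays lay above every array without OM-LZ. Without that array the pooled Hoxa5 difference was 0.99 and passed (limma adjusted p = 0.0148). Hoxa7 read 8.91, 8.47 and 9.25 with CALM-AF10, and its lowest value was 7.63, in ΔOM-LZ replicate 2. Hoxa2, at the front end, averaged 5.89, 5.54, 5.44 and 5.44 with the minimal fusion, CALM-AF10, ΔOM-LZ and MIG, a pooled difference of 0.28. Hoxa4 (0.24), Hoxa13 (0.17) and Hoxa11 (0.07) differed least. Levels of Hoxa11 lay between 4.40 and 5.07 on all arrays, near the dim end of the table, which starts at 2.88. Within the cluster the minimal fusion exceeded CALM-AF10 at an unadjusted p under 0.05 in 7 of 10 genes (0.602% of all probe sets), with a median gap of 0.73, and ΔOM-LZ differed from MIG in none, with a median of 0.01.

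**Figure D2:**
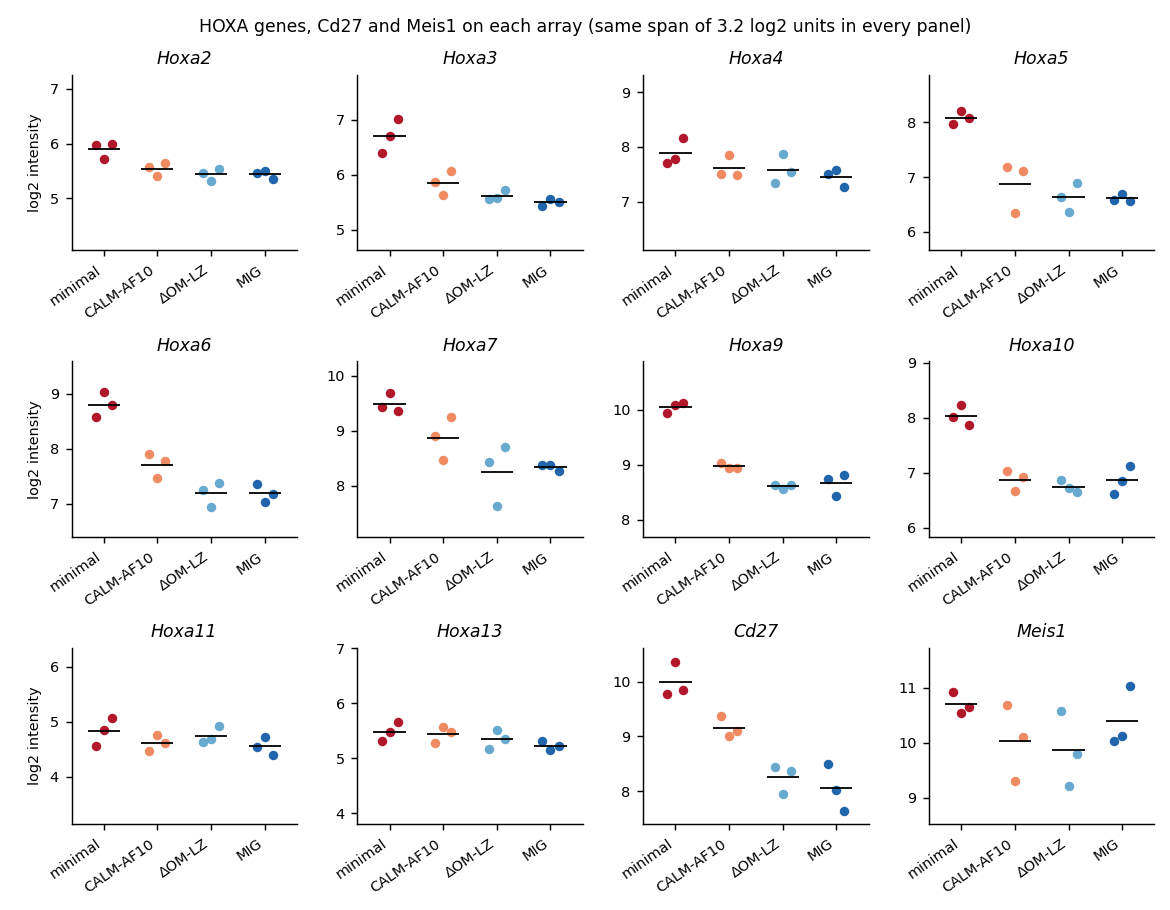
Log2 intensity of the 10 measured HOXA genes, Cd27 and Meis1 on each of the 12 arrays, with a line at the mean of each construct and the same span of values in every panel. Minimal fusion arrays are highest for Hoxa3, Hoxa5, Hoxa6, Hoxa9 and Hoxa10, CALM-AF10 arrays are set off from ΔOM-LZ and MIG for Hoxa9, Hoxa6 and Cd27, and Meis1 varies more between replicates than between constructs.

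A microRNA gene inside the cluster, Mir196b, was added after its values had been seen. It lies between Hoxa9 and Hoxa10, and its 5p microRNA is known to target HOX transcripts. The mature sequences from RefSeq (GRCm38.p6, minus strand, 5p at chr6:52230129-52230150 and 3p at chr6:52230094-52230115) are shown with the seed, bases 2 to 8, in capitals, because the seed sets which transcripts can pair with it.
mmu-miR-196b-5p: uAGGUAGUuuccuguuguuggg
mmu-miR-196b-3p: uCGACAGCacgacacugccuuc
The probe set reads the precursor transcript and not these mature forms. It had values of 7.10, 6.41 and 6.88 with the minimal fusion and 6.40, 5.76 and 5.90 with CALM-AF10, against 6.15, 5.92 and 5.52 with ΔOM-LZ and 5.98, 6.04 and 6.01 with MIG. As for Hoxa10, CALM-AF10 arrays overlapped those without OM-LZ, and the pooled difference of 0.47 did not pass (limma adjusted p = 0.532). The 9 genes flanking the cluster had a median difference of 0.09, with 0 higher and 1 lower at an unadjusted p under 0.05.

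For the partners of HOXA proteins and the parents of the fusion, no difference passed. Meis1, which dimerises with HOXA9, read 10.93, 10.54 and 10.66 with the minimal fusion and 10.69, 9.31 and 10.11 with CALM-AF10. Without OM-LZ it read 10.58, 9.21 and 9.81 with ΔOM-LZ and 10.03, 10.13 and 11.03 with MIG. The pooled difference was 0.24 with a 95% interval of −0.39 to 0.88, so neither a modest rise nor a small fall was resolved. The 8 measured HOX cofactor genes had a median difference of −0.04. Mllt10, the mouse gene for AF10, differed by −0.08 (95% interval −0.27 to 0.11). Picalm, the mouse gene for CALM, had no probe set with its symbol, and the species of the fusion sequences is not given in the labels, so the expression of the constructs themselves was not measured here. HOXB genes, a second cluster expressed in stem cells, were higher in 9 of 9 measured members but by a median of only 0.04, with 0 at an unadjusted p under 0.05.

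Below the threshold, the leading differences took 2 forms. In one, the pooled value was carried by the minimal fusion. Nkx2-3, a homeobox gene outside the HOX clusters that is needed for spleen and gut vessel development, read 7.98, 7.73 and 8.21 with the minimal fusion and 7.21, 7.04 and 7.07 with CALM-AF10, against 6.68, 6.98 and 7.04 with ΔOM-LZ and 7.05, 6.66 and 6.87 with MIG. Only the minimal fusion was set off from the rest, and the pooled difference was 0.66 (SE 0.10, limma adjusted p = 0.161), made of 1.09 for the minimal fusion and 0.22 for CALM-AF10. Mecom, a zinc finger gene of blood stem cells that is activated in some myeloid leukaemias, averaged 8.54 ± 0.36, 6.82 ± 0.56, 6.46 ± 0.46 and 7.07 ± 0.68 with the minimal fusion, CALM-AF10, ΔOM-LZ and MIG on its brighter probe set. Its pooled difference was 0.92 (limma adjusted p = 0.471), and it was 0.63 on the dimmer probe set (limma adjusted p = 0.185). Eya1, a phosphatase and transcriptional cofactor named here after its values were seen, had the same shape, with means of 9.02, 6.97, 6.49 and 7.08 and a pooled difference of 1.21 (SE 0.30, limma adjusted p = 0.363).

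In the other form, both fusions stood about equally far from the arrays without OM-LZ. Rangrf, which encodes a release factor for the nuclear transport GTPase RAN, read 9.75, 9.99 and 9.63 with the minimal fusion and 9.88, 9.53 and 10.06 with CALM-AF10. It read 9.31, 9.38 and 9.36 with ΔOM-LZ and 9.12, 9.06 and 9.0 with MIG. No array with OM-LZ overlapped one without it, the fusions differed from each other by −0.04, and the pooled difference was 0.60 (SE 0.10, limma adjusted p = 0.161). Rangrf has 3 probe sets with its symbol, and all of them had non-overlapping arrays, with 0.46 and 0.59 on the other two. Nfix, a nuclear factor I gene with a role in survival of blood stem and progenitor cells, averaged 10.68 ± 0.02, 10.63 ± 0.10, 10.33 ± 0.02 and 10.27 ± 0.07, a difference of 0.35 (SE 0.06, limma adjusted p = 0.164) with a gap of 0.05 between the fusions. Zfp36l2, an RNA-binding protein that shortens the life of messages with AU-rich tails, lay between the forms: its pooled difference of 0.37 (limma adjusted p = 0.161) was made of 0.46 for the minimal fusion and 0.29 for CALM-AF10, and its ΔOM-LZ mean lay 0.22 above that of MIG.

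Sox4 and Dnmt3b followed this second form and were named after their values were seen. Sox4, a transcription factor gene of progenitors, read 8.61, 8.34 and 8.51 with the minimal fusion and 8.90, 8.26 and 8.27 with CALM-AF10. It read 8.0, 7.74 and 7.92 with ΔOM-LZ and 8.06, 7.86 and 7.88 with MIG. The groups did not overlap, the fusions differed by 0.01 from each other, and the pooled difference was 0.57 (SE 0.12, limma adjusted p = 0.284). Dnmt3b, a DNA methyltransferase that sets new methyl marks, averaged 8.42, 8.25, 7.71 and 7.76 with the minimal fusion, CALM-AF10, ΔOM-LZ and MIG, a difference of 0.60 (SE 0.11, limma adjusted p = 0.185). The 95% interval of the gap between the fusions ran from −0.35 to 0.38 for Sox4, from −0.16 to 0.50 for Dnmt3b, from −0.34 to 0.26 for Rangrf and from −0.13 to 0.24 for Nfix, so gaps of that size between the fusions were not resolved.

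**Figure D3:**
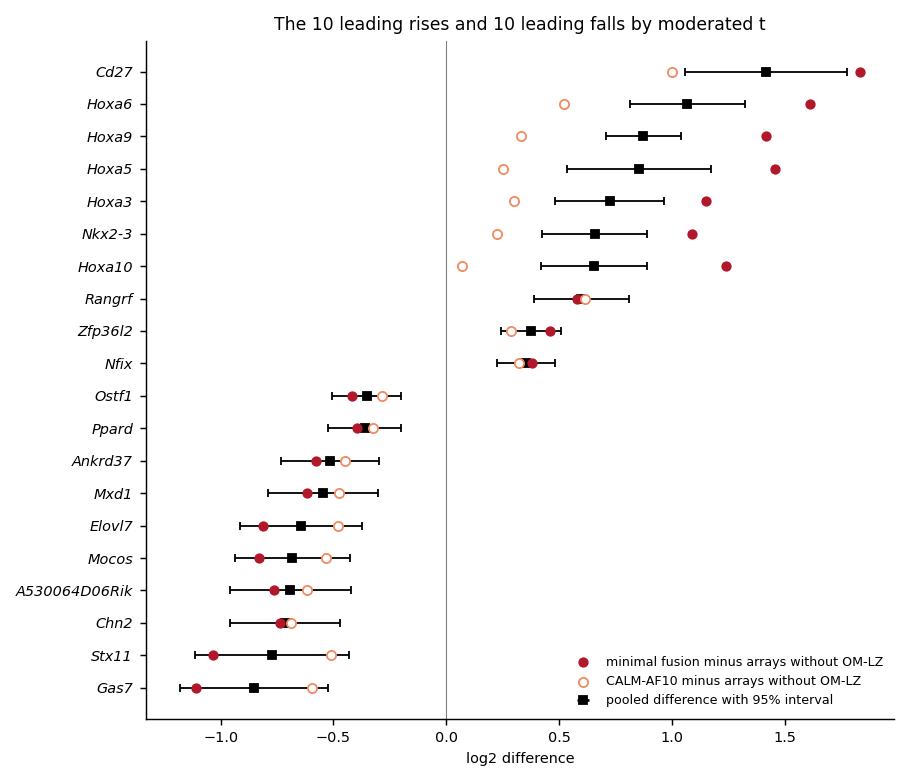
For the 10 genes with the highest and the 10 with the lowest moderated t, black squares give the pooled log2 difference with its 95% interval, filled circles the minimal fusion minus the arrays without OM-LZ, and open circles CALM-AF10 minus the same arrays. For HOXA genes and Nkx2-3 the filled circles lie far to the right of the open ones (1.24 and 0.07 for Hoxa10), while for Rangrf (0.58 and 0.62) and Chn2 (−0.74 and −0.69) they nearly coincide.

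No gene passed as lower with OM-LZ, so the leading lower genes are given as values. Chn2, which encodes a chimaerin that switches off the GTPase RAC, read 8.55, 8.75 and 8.46 with the minimal fusion and 8.55, 8.83 and 8.53 with CALM-AF10. It read 9.30, 9.08 and 9.24 with ΔOM-LZ and 9.20, 9.34 and 9.79 with MIG. All 6 arrays with OM-LZ lay below all 6 without it, and the pooled difference was −0.71 (SE 0.11, limma adjusted p = 0.161). Gas7, a growth arrest gene that acts on the cytoskeleton, averaged 8.10 ± 0.18, 8.62 ± 0.31, 9.22 ± 0.25 and 9.20 ± 0.37 with the minimal fusion, CALM-AF10, ΔOM-LZ and MIG. Its difference of −0.85 (SE 0.15, limma adjusted p = 0.185) held both a lower minimal fusion and a lower CALM-AF10, at −1.11 and −0.59. Mocos, the molybdenum cofactor sulfurase gene, differed by −0.68 (limma adjusted p = 0.171) and A530064D06Rik by −0.69 (limma adjusted p = 0.185), both without overlap.

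Further down, Stx11 (−0.77), a syntaxin used in granule release, Elovl7 (−0.64), a fatty acid elongase, and Mxd1 (−0.55), an antagonist of MYC at shared DNA sites, had arrays that overlapped. Ppard, a nuclear receptor for fatty acids, averaged 9.09, 9.16, 9.48 and 9.50 with the minimal fusion, CALM-AF10, ΔOM-LZ and MIG, and did not overlap. Ostf1 (−0.35) had its highest mean with MIG. Ankrd37, a gene induced in low oxygen, had high values on MIG arrays. It read 6.51, 6.5 and 6.73 with the minimal fusion, 6.66, 6.87 and 6.59 with CALM-AF10, 6.59, 6.82 and 6.47 with ΔOM-LZ and 7.77, 7.44 and 7.86 with MIG. Its ΔOM-LZ arrays lay among those of the OM-LZ fusions, and its pooled difference of −0.51 (limma adjusted p = 0.242) was 0.02 with MIG left out.

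Non-overlap of the 6 and 6 arrays gives a count that needs no model. Of the probe sets tested, 91 had every OM-LZ array above every other array (0.389%) and 32 had every one below (0.137%). Among probe sets with 1 gene symbol these were 87 probe sets of 83 genes and 30 probe sets of 29 genes. The higher set had a median difference of 0.32 and the lower set one of 0.65 in size. The fusions differed from each other at an unadjusted p under 0.05 in 4 of the 87 and 1 of the 30, against 1.8% of all probe sets, so these counts do not set them apart, and the median gap between the fusions was 0.03 in the higher set and −0.11 in the lower. Minimal fusion means lay above CALM-AF10 in 59 of the 87, and below it in 24 of the 30. The share among all probe sets was not counted, though their median gap was −0.007. Both sets were also chosen on these same arrays, so no result about their members is drawn from these counts.

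Among the higher ones, chosen after their values were seen, were Polr1b, a subunit of RNA polymerase I (0.42), Nat10, an acetyltransferase of ribosomal RNA (0.33), Nop16, a nucleolar protein (0.33), and Cdk4, a kinase of the G1 phase (0.21). Cdk4 read 12.58, 12.75 and 12.57 with the minimal fusion and 12.66, 12.64 and 12.55 with CALM-AF10, against 12.52, 12.39 and 12.48 with ΔOM-LZ and 12.53, 12.33 and 12.27 with MIG. These differences were small, and none passed (limma adjusted p = 0.284 to 0.544). Macroh2a1, a histone variant of silent chromatin, differed by 0.39, and Etv6, a repressor needed by adult blood stem cells, by 0.20. Among the lower ones, Myo1d, an unconventional myosin, differed by −1.10 and −1.01 on its pair of probe sets, Gsn, which severs actin filaments, by −0.86, and Alox5ap, needed for leukotriene synthesis, by −0.37. Timp2 and Igf1 also met the count, but with wide spread: Igf1 read 5.7, 5.6 and 5.76 with the minimal fusion and 5.66, 5.68 and 5.52 with CALM-AF10, against 8.72, 5.88 and 5.77 with ΔOM-LZ and 5.86, 7.0 and 5.77 with MIG. For Igf1 ΔOM-LZ replicate 1 and MIG replicate 2 made most of the difference.

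**Figure D4:**
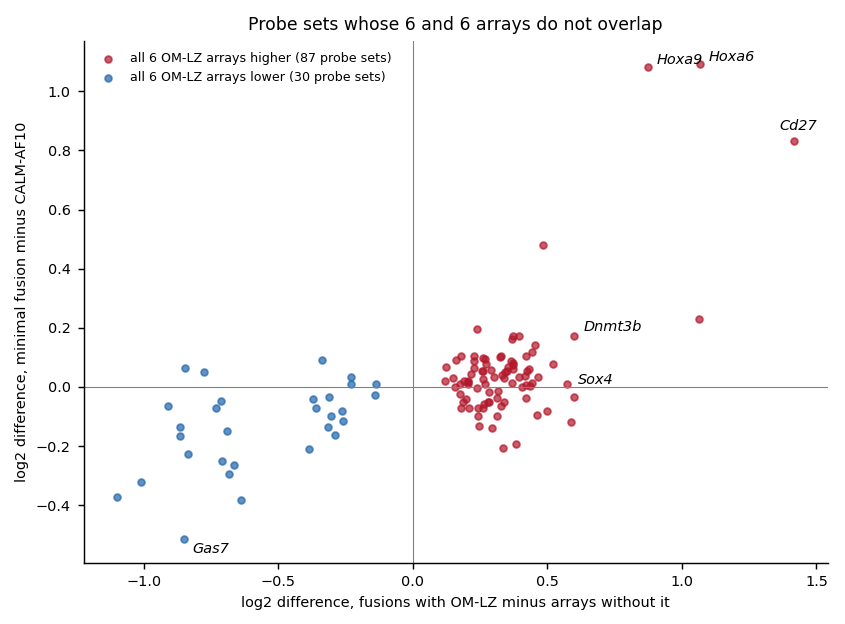
Probe sets with 1 gene symbol whose 6 arrays with OM-LZ lay all above (87) or all below (30) the 6 without. The x axis is the pooled log2 difference and the y axis the minimal fusion minus CALM-AF10, also log2. Most points lie near 0 on the y axis, while Hoxa9, Hoxa6 and Cd27 stand far above it at 1.08, 1.09 and 0.83.

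Factors tied to self-renewal leaned higher with OM-LZ. Of 23 measured, 18 stood higher, and the median difference was 0.19. At an unadjusted p under 0.05, 9 were higher and 1 lower, against 4.1% and 2.85% of all probe sets. This list and those below were chosen with earlier results of these data known, so such shares are not independent of these arrays. The mean deviation of the list from its mean over all arrays was 0.29, 0.12 and 0.19 with the minimal fusion but 0.23, −0.21 and 0.00 with CALM-AF10, against −0.03, −0.22 and −0.20 with ΔOM-LZ and −0.11, −0.18 and 0.12 with MIG. CALM-AF10 thus overlapped the arrays without OM-LZ. After Nkx2-3 the leading member was Bahcc1, a chromatin reader, which averaged 9.02, 8.55, 8.36 and 8.08 with the minimal fusion, CALM-AF10, ΔOM-LZ and MIG and differed by 0.56 (limma adjusted p = 0.185). Myc differed by 0.21 (limma adjusted p = 0.653). Id2, an inhibitor of E-protein transcription factors, was the lowest, at −1.09 (limma adjusted p = 0.597), with values from 9.58 to 11.47 with OM-LZ against 10.59 to 12.38 without. Markers of stem and progenitor cells, on the surface or inside the cell, were split, with 10 of 18 higher and a median of 0.02. Next to Cd27 in that list, Flt3, the receptor for FLT3 ligand on early progenitors, differed by 1.14 (SE 0.32, limma adjusted p = 0.448), and Tek, a receptor of stem cells, by −0.68 (limma adjusted p = 0.777).

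Genes of maturing myeloid cells leaned lower with OM-LZ, and none of their members passed. All 18 measured late neutrophil genes stood lower, with a median of −0.52 and 4 at an unadjusted p under 0.05, against 2.85% of all probe sets. The list's mean deviation was −0.57, 0.20 and 0.145 with CALM-AF10 and 0.06, 0.59 and −0.57 with MIG, so these groups overlapped. Group means were −0.49, −0.07, 0.54 and 0.02 with the minimal fusion, CALM-AF10, ΔOM-LZ and MIG, so CALM-AF10 stood close to MIG. The constructs without OM-LZ differed by about as much, with a median of 0.49 for ΔOM-LZ minus MIG. Without MIG replicates 1 and 3, a choice made after seeing the data, the pooled median was −0.86. MIG was then replicate 2 alone, its highest array for this list at 0.59. Cxcr2, the chemokine receptor that draws neutrophils from the marrow, averaged 7.91, 8.41, 9.69 and 8.93 with the minimal fusion, CALM-AF10, ΔOM-LZ and MIG, a difference of −1.15 (SE 0.23, limma adjusted p = 0.284). Genes of the earlier primary granules, such as those for myeloperoxidase and elastase, did not lean: 7 of 13 stood higher, with a median of 0.07. Exceptions among them were Serpinb1a, an inhibitor of granule proteases, at −0.66 without overlap, and Ctsc, the protease that activates them, at −0.46. Monocyte and macrophage genes stood lower in 19 of 22, with a median of −0.50, while the median of ΔOM-LZ minus MIG was 0.33. The list's mean deviation was 1.29 in ΔOM-LZ replicate 1 and 1.04 in MIG replicate 2, and the other arrays without OM-LZ, from −0.39 to 0.16, overlapped the arrays with it, from −0.56 to 0.06. Without MIG replicates 1 and 3 all 22 stood lower, with a median of −0.88, but MIG was then replicate 2 alone, its highest array. The list was led by Nos2 (−0.47) and by Adgre1 (−1.27), which encodes an adhesion receptor used as a macrophage marker. Inflammatory cytokine genes stood lower in 20 of 22, with a median of −0.39, among them Ccl6 at −0.91. Their mean deviation was −0.53, −1.0 and −0.42 with the minimal fusion and 0.01, −0.51 and 0.60 with CALM-AF10, against 0.92, −0.11 and 0.34 with ΔOM-LZ and −0.35, 0.75 and 0.30 with MIG. CALM-AF10 overlapped the arrays without OM-LZ, and the median gap of the minimal fusion to CALM-AF10 was −0.38.

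Megakaryocyte and mast cell genes had the lowest medians. The mean deviation of the megakaryocyte list was −0.529, −0.171, 0.188 and 0.511 with the minimal fusion, CALM-AF10, ΔOM-LZ and MIG. That of the mast cell list was −0.727, −0.037, 0.325 and 0.438 in the same order. In both lists the minimal fusion had the lowest mean, and CALM-AF10 arrays overlapped those without OM-LZ. Megakaryocyte and platelet genes stood lower in 13 of 15, with a median of −0.62 and 9 at an unadjusted p under 0.05, against 2.85% of all probe sets. Ppbp, a platelet chemokine, read 7.98, 7.52 and 7.03 with the minimal fusion and 9.93, 7.76 and 9.24 with CALM-AF10, against 12.18, 10.12 and 8.41 with ΔOM-LZ and 9.41, 12.30 and 11.57 with MIG. The minimal fusion was lowest and the other groups spread widely, and the difference of −2.42 (SE 0.67) did not pass (limma adjusted p = 0.44). Pf4, platelet factor 4, differed by −1.17 (limma adjusted p = 0.52). All 15 mast cell and basophil genes stood lower, with a median of −0.85, such as Fcer1a, the binding chain of the IgE receptor, at −1.39 (limma adjusted p = 0.59), and Cpa3, a granule carboxypeptidase, at −0.45 (limma adjusted p = 0.532). Single arrays moved with these lists. The mean deviation of the mast cell list from its mean over all arrays was 0.88 in CALM-AF10 replicate 1, which had OM-LZ, and 1.24 in ΔOM-LZ replicate 1 and 1.71 in MIG replicate 3, which had not, against −0.99 to 0.02 in the other 9 arrays. Without these 3 arrays, a choice made after seeing the data, the median was −0.41 for mast cell genes (13 of 15 lower) and −0.38 for megakaryocyte genes (14 of 15 lower). The HOXA median was 0.71 and the late neutrophil median −0.67 without them. For late neutrophil genes each of these 3 was the lowest array of its construct, with mean deviations of −0.571, 0.03 and −0.573. The late neutrophil median thus depends on which arrays were left out.

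Genes of cell division had medians closer to 0. DNA replication genes stood higher in 21 of 24 by a median of 0.14, with 0 at an unadjusted p under 0.05, and mitosis genes in 11 of 21 by 0.01. The replication list had mean deviations of 0.23, −0.08, −0.08 and −0.06 with the minimal fusion, CALM-AF10, ΔOM-LZ and MIG, so CALM-AF10 was not raised. The median gap of the minimal fusion to CALM-AF10 was 0.29 for replication and 0.41 for mitosis genes, with 0 members at an unadjusted p under 0.05. Erythroid genes stood lower in 11 of 15 by a median of −0.12, and B cell and T cell genes had medians of −0.03 and 0.02. Glycolysis genes (median −0.17) and other genes induced in low oxygen (median −0.30, with 20 of 23 lower) stood lower, and the constructs without OM-LZ again differed from each other. The median of ΔOM-LZ minus MIG was −0.46 for glycolysis and −0.51 for low oxygen genes, and the low oxygen list had mean deviations of 0.45 and 0.81 in MIG replicates 1 and 3 against −0.29 to 0.01 elsewhere. Slc16a3, a lactate exporter, averaged 9.27, 9.54, 9.80 and 10.69 with the minimal fusion, CALM-AF10, ΔOM-LZ and MIG, and P4ha1, a collagen prolyl hydroxylase induced in low oxygen, averaged 9.63 with the minimal fusion and 10.86 with MIG, its lowest and highest means. Without MIG replicates 1 and 3, again chosen after seeing the data, the pooled medians were 0.00 for glycolysis and −0.11 for low oxygen genes, with 8 of 17 and 14 of 23 lower. MIG was then replicate 2 alone, its lowest array for both lists.

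**Figure D5:**
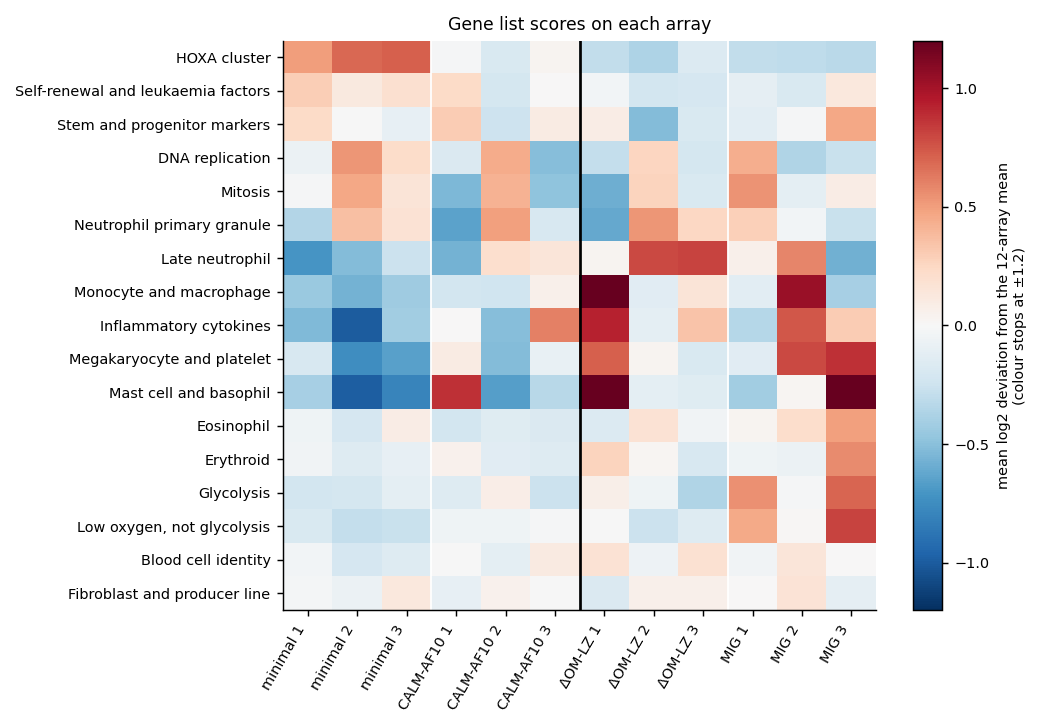
Each cell is the mean log2 deviation of a gene list on an array from that list's mean over all 12 arrays, red above and blue below. Arrays with OM-LZ are left of the black line, with the minimal fusion first, and arrays without it are right. HOXA genes are red on minimal fusion arrays, mast cell genes stand out on CALM-AF10 replicate 1, ΔOM-LZ replicate 1 and MIG replicate 3, and low oxygen genes on MIG replicates 1 and 3.

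The pooled comparison treats each set of 6 arrays as 1 class, and the constructs within a set were compared in the same fit. Between the OM-LZ fusions, Hoxa9 alone passed, higher with the minimal fusion (0.00427% of the probe sets tested), with 422 at an unadjusted p under 0.05 (1.8%). Between ΔOM-LZ and MIG, limma called 0 of the 23410 probe sets with a gene symbol, and its lowest adjusted p was 0.234. At an unadjusted p under 0.05 there were 927 (3.96%), and trend and robust variance called 0 as well. Probe sets without a symbol were not tested in this comparison. Probe set 10468877, which has none, averaged 4.79 ± 0.23 with ΔOM-LZ and 9.14 ± 0.26 with MIG (SD, n = 3 each). Set against the 6 arrays without OM-LZ, the minimal fusion by itself had 9 probe sets past the threshold (0.0384%), all higher, and CALM-AF10 by itself had 0, with 902 at an unadjusted p under 0.05 (3.85%). For the 3 genes called, CALM-AF10 lay above all arrays without OM-LZ on each of its 3 arrays. The pooled comparison that chose these genes used the same arrays, so this is not independent of the choice. The 6 of these 9 probe sets that the pooled comparison did not call were those of Hoxa3, Hoxa5, Hoxa10, Nkx2-3, the dimmer Mecom probe set and A630072M18Rik, the last of which is named after its values were seen.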

How the data were processed

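The deposited values are log2 intensities of 35556 probe sets on 12 Affymetrix arrays, 1 value per array, which per the submitters' processing notes came from Affymetrix Expression Console. Probe summarization and array normalization were not given in the sources used here. Values from 2.883 to 14.272 showed the scale to be log2. Nothing was renormalized, and 0 columns belonged to unmapped samples. Platform annotation named 23410 probe sets, 21789 with 1 symbol and 1621 with several. The 12146 without a symbol were tested only in a further fit of all 35556 probe sets together. The brightest probe set stands for a gene. limma 3.58.1 in R 4.3.3 fitted 1 mean per construct (8 residual degrees of freedom), with two-sided p-values adjusted by Benjamini-Hochberg over 23410 probe sets, threshold 0.05. The fit was also run on simulated arrays with independent noise and equal shifts in all arrays with OM-LZ. That setting held no gap between the fusions and no shared deviation of same-numbered arrays. Named genes are those past the threshold, the next by moderated t up to 10 in each direction, the HOXA cluster with Meis1, Picalm, Mllt10 and Mecom, and up to 4 members of each list discussed; others are said to be chosen after their values were seen. The members, lists and tests were chosen with earlier results of these data known. Same-numbered arrays deviated together in every replicate for CALM-AF10 and ΔOM-LZ (correlations 0.697 to 0.729). For the other pairs of constructs correlations ran from −0.596 to 0.717. In replicate 1 the minimal fusion had 0.717 with CALM-AF10 and 0.621 with ΔOM-LZ. As not all pairs deviated together, the number was not used as a block in the reported fit, and a fit with it is given below. Alternatives tried were other variance models, scalings, probe set filters, a replicate block, and leaving out arrays or constructs. The number of arrays limits precision.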

Additional observations from a re-analysis of the deposited data

Results flagged for a closer look

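Among 126 values tested for an array standing apart from the other 5 arrays with, or without, OM-LZ (28 genes and 35 list means on each side), 7 were marked, where chance marks about 1 in 20, and each side mixes 2 constructs. With OM-LZ, CALM-AF10 replicate 2 had the lowest Nfix value, 10.51, and the highest Mxd1 value, 9.54. Without OM-LZ, MIG replicate 3 had the highest Chn2 value, 9.79. As mean deviations of a list from its 12-array mean, CALM-AF10 replicate 1 was highest for mast cell and basophil genes at 0.881, minimal fusion replicate 2 was lowest for T and NK cell genes at −0.188, ΔOM-LZ replicate 3 was the highest without OM-LZ for HOXA genes at −0.161, and ΔOM-LZ replicate 2 was lowest for sex-linked genes at −0.34.

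The fusions with OM-LZ differed from each other for Hoxa9, by 1.08 in favour of the minimal fusion (limma adjusted p = 0.0161).

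Among probe sets without a gene symbol, 2 passed when the whole table was tested. Probe set 10340369 averaged 9.10 ± 0.18, 7.82 ± 0.10, 7.53 ± 0.27 and 7.15 ± 0.04 with the minimal fusion, CALM-AF10, ΔOM-LZ and MIG (SD, n = 3 each), a pooled difference of 1.12 (SE 0.10, limma adjusted p = 0.00386). Probe set 10468877 averaged 4.58, 4.50, 4.79 and 9.14, a pooled difference of −2.42 (limma adjusted p = 7.29e-06) that separated MIG from all 3 fusions.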

How the results depend on the processing

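Of the 3 genes called, Hoxa9 alone passed without each of the 12 arrays (limma adjusted p = 0.00399 to 0.0309). Hoxa6 passed in 4 of these 12 fits and Cd27 in 2, with adjusted p up to 0.109 and 0.116. The count ran from 1 to 6 without 1 array, and was 6 without CALM-AF10 replicate 2, where Hoxa5, Rangrf and Mxd1 (lower) were added. It was 3 with trend and robust variance, quantile normalization or probe sets with 1 symbol. The brighter probe sets and the mean of a gene's probe sets also gave 3. The count was 3 with all probe sets, or 5 when those without a gene symbol are counted. It was 1 with median centring, 1 with MIG left out, 2 with ΔOM-LZ left out, and 9 with CALM-AF10 left out. It was 0 with the minimal fusion left out and 0 in a fit of 2 groups of 6, in which the gap between the fusions enters the spread. With the replicate number as a block it was 1 (Hoxa9), Hoxa6 and Cd27 each having an adjusted p of 0.0865, and the block gave 0 between the fusions and 0 between ΔOM-LZ and MIG. Between the fusions the count ran from 0 to 1 without 1 array, and between ΔOM-LZ and MIG from 0 to 4, with 4 without MIG replicate 2. The sign turned in 5 cases, none of them called: Hoxa11 without the minimal fusion (−0.0327) or MIG (−0.0237), Meis1 without the minimal fusion (−0.091) or ΔOM-LZ (−0.0227), and Ankrd37 without MIG (0.0202). The cause of these changes was not tested beyond the groups left out. With 3 arrays per construct and an unknown normalization, small differences such as those of the non-overlapping genes were not resolved, and probe sets near the dim end limit what can be said of Hoxa11 and Hoxa13.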
